A study of Mus musculus with 6 samples.

Results

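The genes described here encode the major histocompatibility complex (MHC) class I molecules of the mouse: 8 heavy chain genes (H2-K1, H2-D1, H2-Q4, H2-Q6, H2-Q7, H2-T22, H2-T23 and H2-M3), B2m, which encodes the light chain beta-2-microglobulin, and Nlrc5, which encodes the transactivator of class I promoters. They were chosen by gene symbol, and all 10 were found among the 24346 genes of the expression table. Expression was measured by RNA sequencing in primary articular chondrocytes, the cells of joint cartilage, from ICR mice at postnatal day 4. The 3 control libraries came from cells without semaphorin 4D, and 3 further libraries came from cells given semaphorin 4D (Sema4D), a signalling protein that binds plexin receptors. No allele or other agent is named for either group. The dose, the duration, the control medium and whether replicates were separate cultures or animals are not given in the sources used here, so each p-value rests on how far libraries of a group differ, a spread that could be technical. Levels are FPKM, fragments per kilobase of transcript scaled to the number of mapped fragments. Being per length, they can be set side by side between genes, less surely where class I genes share sequence. Class I alleles of the ICR cells may differ from the build used for mapping, and the effect on the values was not tested.

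A class I molecule is a heavy chain held together with beta-2-microglobulin, and it shows short peptides from inside the cell at the cell surface. The classical heavy chains, encoded by H2-K1 and H2-D1, present peptides to CD8+ T cells. The Qa and T region genes and H2-M3 encode non-classical heavy chains with fewer alleles and more specialised ligands. Peptides cut by the proteasome are carried into the endoplasmic reticulum by the transporter Tap1-Tap2, trimmed by Erap1 and loaded with the help of tapasin (Tapbp). Class I promoters carry a kappaB element bound by NF-kappaB, an interferon-stimulated response element bound by interferon regulatory factors, and an SXY module bound by the RFX complex, CREB or ATF1 and NF-Y, on which Nlrc5 assembles.

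The 5 promoters printed here let a reader compare how much of this layout stands in a classical gene, a Qa gene, the light chain gene and 2 T region genes, whose responses to Sema4D are compared afterwards. Each is the 200 bases before the RefSeq start in mouse build GRCm38.p6, written 5′ to 3′ on the strand of the gene, with motif matches on either strand in capitals.
H2-D1 promoter, chr17:35262894-35263093, plus strand: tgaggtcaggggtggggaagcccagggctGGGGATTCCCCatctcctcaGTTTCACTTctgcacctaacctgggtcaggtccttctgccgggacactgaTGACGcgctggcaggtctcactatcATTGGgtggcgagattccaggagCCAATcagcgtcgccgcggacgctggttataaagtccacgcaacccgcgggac
H2-Q4 promoter, chr17:35379417-35379616, plus strand: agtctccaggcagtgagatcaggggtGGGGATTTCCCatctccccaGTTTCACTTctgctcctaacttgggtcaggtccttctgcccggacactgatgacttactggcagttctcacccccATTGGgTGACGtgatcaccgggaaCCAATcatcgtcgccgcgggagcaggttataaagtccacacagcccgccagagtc
B2m promoter, chr2:122147487-122147686, plus strand: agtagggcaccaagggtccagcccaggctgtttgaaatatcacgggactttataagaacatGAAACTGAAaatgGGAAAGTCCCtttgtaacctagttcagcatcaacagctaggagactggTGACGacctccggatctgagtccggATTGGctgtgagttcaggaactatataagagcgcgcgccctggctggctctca
H2-T22 promoter, chr17:36042743-36042942, minus strand: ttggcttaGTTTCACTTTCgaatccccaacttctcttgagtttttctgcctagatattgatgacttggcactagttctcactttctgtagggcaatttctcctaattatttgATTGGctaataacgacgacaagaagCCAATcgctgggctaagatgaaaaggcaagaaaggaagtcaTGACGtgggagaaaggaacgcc
H2-T23 promoter, chr17:36032702-36032901, minus strand: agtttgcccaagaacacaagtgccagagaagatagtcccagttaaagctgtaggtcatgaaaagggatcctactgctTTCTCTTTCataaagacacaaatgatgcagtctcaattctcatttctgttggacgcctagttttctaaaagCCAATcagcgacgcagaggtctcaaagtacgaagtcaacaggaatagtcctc
The motifs searched were GGGATTNCC (the kappaB site of class I enhancer A), GTTTCACTT (the interferon element of class I genes), GAAANNGAA (an interferon-stimulated response element, ISRE), TGACG (the X2 core), ATTGG (the Y box) and the general kappaB consensus, which overlaps the first motif. They were chosen with these sequences in view, and a match is a description of letters, not of binding. The letters are those of the build, and those of the ICR cells may differ.

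Of the 10 genes, 9 had a promoter entry, and Nlrc5 is named only. GGGATTNCC stood in 5 of the 9 (H2-K1, H2-D1, H2-Q4, H2-Q6 and H2-Q7), against 0.662% of 27025 mouse promoter windows of the same length. GTTTCACTT stood in 7, these 5 together with H2-T22 and H2-M3, against 0.259% of all windows. In H2-K1, H2-D1, H2-Q4 and H2-Q6 the interferon element began 19 bases after the start of the kappaB site, and in H2-Q7 it began 18 bases after it. GAAANNGAA was found in 3 (H2-T22, H2-T23 and B2m), against 5.62% of all windows, and in H2-T22 it overlaps GTTTCACTT. TGACG was found in 7 of the 9, all but H2-Q6 and H2-T23, against 15.8% of all windows. In H2-Q4 it began 73 bases before the start, past the ATTGG at 79 bases. In H2-T22 it began 22 bases before the start, past the Y box matches at 88 and 63 bases. From the interferon element TGACG began 81 bases on in H2-Q4 and 170 in H2-T22. That distance was 50 bases in H2-K1, H2-D1 and H2-Q7 and 56 in H2-M3. These letters in H2-Q4 and H2-T22 thus stand outside the usual layout. ATTGG was found in all 9, against 30.0% of all windows. On the strand of the gene, the X2 core and the next ATTGG began 25 bases apart in H2-K1, H2-D1, H2-M3 and B2m, and 24 bases apart in H2-Q7. In H2-M3 a match to the opposite strand, CCAAT, lies between them. The general kappaB consensus was matched in 7 of the 9, against 5.84% of windows. In B2m the match was GGAAAGTCCC and in H2-M3 it was GGAGATTCCC, while H2-T22 and H2-T23 had none in this window. The H2-K1 window lies inside the RefSeq span of the gene and that of H2-Q7 overlaps its span, since the table uses a later start for them. By the GENCODE spans, the H2-D1 window lies inside the gene and the H2-T23 window partly inside it. Which letters fall in a window thus depends on the start used.

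All heavy chain genes lie on chromosome 17. From the centromere they run as H2-K1 (chr17:33996012-34000619, minus strand), H2-D1 (chr17:35263094-35267497), H2-Q4 (chr17:35379617-35384674), H2-Q6 (chr17:35424850-35430055), H2-Q7 (chr17:35439140-35443773), H2-T23 (chr17:36029977-36032701, minus strand), H2-T22 (chr17:36037128-36042742, minus strand) and H2-M3 (chr17:37270234-37274485). B2m lies on another chromosome (chr2:122147687-122153082), as does Nlrc5 (chr8:94434335-94527272). These are whole gene spans from RefSeq on GRCm38.p6, and the values are summed over the exons of each gene.

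The libraries held an estimated 1.25e+07 to 1.67e+07 fragments, read from the spacing of low FPKM values. With limma on log2(FPKM + 1) and an adjusted p under 0.05, 2841 of 11603 tested genes were higher with Sema4D and 2581 were lower, so 52.4% of the calls were higher. That share was 38.8% after quantile normalization and 34.5% after scaling to equal summed FPKM, which moved the median of all genes by -0.05 and -0.08 on the log2 scale. The chondrocyte markers were high in every library: Col2a1, the main cartilage collagen, lay between 8395 and 10952 FPKM, the cartilage proteoglycan gene Acan between 332 and 573 FPKM, and the transcription factor gene Sox9 between 34.5 and 70.2 FPKM. With Sema4D, 12 of 13 tested chondrocyte markers were lower (limma), beside 22.2% of all tested genes. The summed level of all 14 markers, most of it Col2a1, went from 15674-16979 to 12569-13660 FPKM. In bulk RNA, fewer cells of a type and less RNA per cell cannot be told apart.

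With Sema4D, 8 of the 10 class I genes passed the filter of a mean FPKM of at least 1, and all 8 of these were higher (limma, adjusted p under 0.05), beside 24.5% of all tested genes called higher. H2-T22 and H2-Q7 passed the filter only through their levels with Sema4D, while 6 genes had a control mean of at least 1 (B2m, H2-D1, H2-K1, H2-Q4, H2-M3 and H2-T23). H2-Q6 and Nlrc5 lay under the filter. The 8 log2 differences ran from 0.48 to 2.19 with a median of 0.95, beside a median of 0.01 over all tested genes. In all 8 tested class I genes every Sema4D library lay above every control library, which held for 29.6% of tested genes (the reverse held for 27%). With Nlrc5, under the filter, this made 9 of the 10 genes, and H2-Q6 was the exception. The share among genes under the filter was not computed. Sema4D replicate 2 gave the highest of the 3 Sema4D values in 6 of the 10 genes, replicate 3 in 3 genes and replicate 1 in 1 gene.

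**Figure D1:**
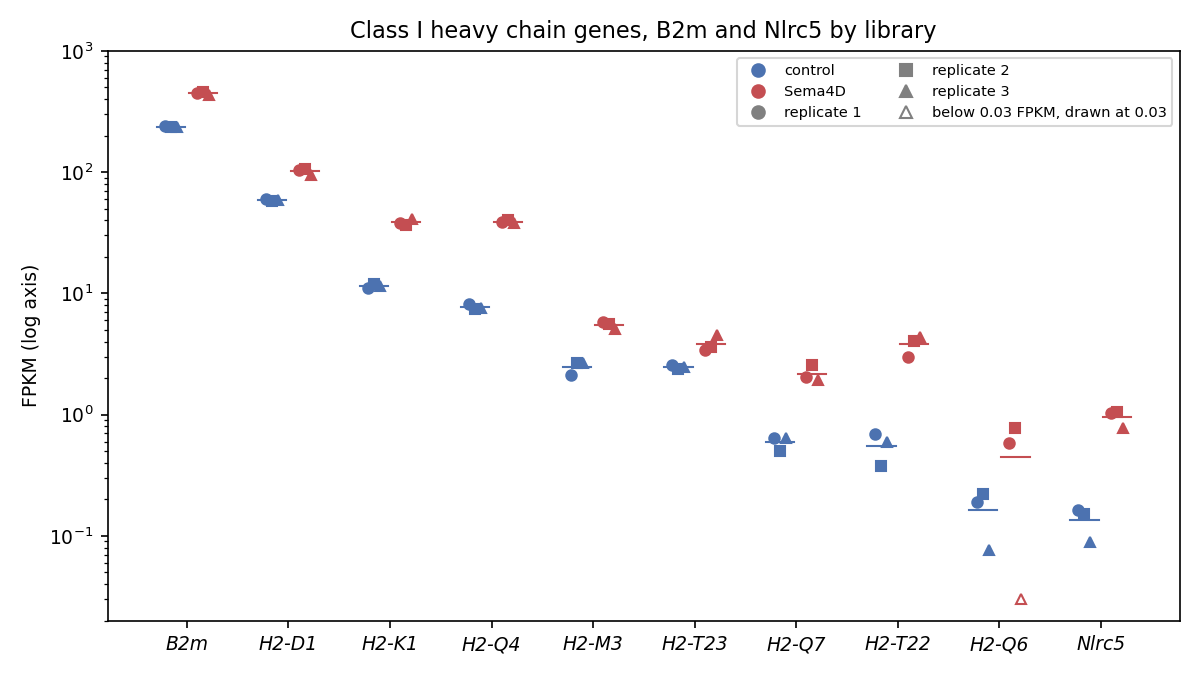
FPKM (log axis) of the 10 class I genes in each of the 6 libraries, with the mean of each group as a bar, controls in blue and Sema4D libraries in red. The groups are apart in 9 genes, from B2m at 237 and 445 FPKM to Nlrc5 at 0.135 and 0.956 FPKM, and they overlap in H2-Q6, whose Sema4D replicate 3 is drawn as an open symbol at the lower limit.

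B2m, the light chain shared by all heavy chains, had the highest level of the 10 genes. Its FPKM was 241, 234 and 235 in control replicates 1 to 3 and 445, 455 and 435 in Sema4D replicates 1 to 3. The groups were far apart and each varied little, at 237 ± 3.75 and 445 ± 9.95 FPKM (SD, n = 3). The fold of the mean FPKM was 1.88, and the log2 difference was 0.91 (SE 0.027, limma adjusted p = 4.51e-08). Among the tested genes, 3.91% had a larger difference. No 50-base stretch of the B2m transcript is shared with another gene of GENCODE M21.

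H2-D1 was the most abundant heavy chain gene. It measured 59.8, 57.5 and 59.1 FPKM in the controls and 103, 106 and 94.5 FPKM with Sema4D. Its lowest Sema4D library lay well above its highest control. The log2 difference was 0.77 (95% interval 0.67 to 0.87, limma adjusted p = 2.25e-06), a fold of 1.72 in mean FPKM.

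H2-K1, the other classical heavy chain gene, started lower and rose by more. Its levels were 11.03, 12.04 and 11.4 FPKM in the controls and 38.0, 36.5 and 40.7 FPKM with Sema4D. The log2 difference was 1.66 (95% interval 1.54 to 1.77, limma adjusted p = 4.79e-08), a fold of 3.34. The intervals of H2-K1 and H2-D1 did not overlap. The ratio of H2-K1 to H2-D1 FPKM went from 0.196 ± 0.0126 to 0.381 ± 0.0443 (SD, n = 3), higher in every Sema4D library than in every control (exact two-sided permutation p = 0.1, the smallest that 3 against 3 libraries allow). The H2-K1 window, not printed, holds the kappaB, interferon, X2 and first Y box letters at the same spacings as the H2-D1 window. In H2-D1 the Y box matches begin 76 and 53 bases before the start. In H2-K1 the only one begins 16 bases before the start, so the place of a further match lies past the end of its window.

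H2-Q4, a Qa gene, had the largest difference of the tested class I genes on the log2(FPKM + 1) scale, while with a pseudocount of 0.1 that of H2-T22 was larger (2.59 against 2.32). It measured 8.18, 7.41 and 7.56 FPKM in the controls and 38.5, 40.0 and 38.1 FPKM with Sema4D. The log2 difference was 2.19 (SE 0.045, limma adjusted p = 4.62e-09), a fold of 5.04, and 0.957% of tested genes had a larger one. In the controls H2-Q4 lay below H2-K1 in every library, whereas with Sema4D the ranges of the 2 genes overlapped. The ratio of H2-Q4 to H2-K1 FPKM went from 0.673 ± 0.0637 to 1.02 ± 0.0800 (SD, n = 3; exact two-sided permutation p = 0.1, the smallest possible).

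H2-Q7, which with its close copies encodes the Qa-2 antigen, was low in the controls, at 0.642, 0.497 and 0.646 FPKM. With Sema4D it measured 2.04, 2.56 and 1.94 FPKM, so the groups did not overlap. The log2 difference was 0.99 (SE 0.099, limma adjusted p = 6.87e-05), a fold of 3.66.

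H2-Q6 was near the limit of detection and its Sema4D libraries disagreed. It was listed at 0.192, 0.223 and 0.0770 FPKM in the controls and at 0.578, 0.772 and 8.17e-05 FPKM with Sema4D. These levels correspond to about 2.5 to 7.5 fragments in the controls and 0 to 24.9 with Sema4D. In the fit with no filter on low values the log2 difference was 0.28 (95% interval -0.20 to 0.76, limma adjusted p = 0.361), which did not pass. Without Sema4D replicate 3 it was 0.52 (limma adjusted p = 0.0052).

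The log2 differences of the 2 T region genes were unequal in size. H2-T22, whose product binds gamma-delta T cell receptors, had 0.689, 0.379 and 0.589 FPKM in the controls and 3.0, 4.02 and 4.37 FPKM with Sema4D. Its log2 difference was 1.62 (95% interval 1.33 to 1.91, limma adjusted p = 1.59e-05), a fold of 6.87, from about 18.8 to 28 fragments in the controls and 153 to 191 with Sema4D. H2-T23, which encodes Qa-1, the ligand of the CD94-NKG2A receptor, had 2.54, 2.38 and 2.48 FPKM in the controls and 3.42, 3.61 and 4.52 FPKM with Sema4D. Its Sema4D libraries also lay above all controls, with replicate 3 the highest. The log2 difference of H2-T23 was 0.48 (95% interval 0.27 to 0.68, limma adjusted p = 0.00261), the smallest of the 8 tested genes, and its interval did not overlap that of H2-T22. Of the printed promoters, that of H2-T23 holds a GAAANNGAA and a Y box match only, in a window partly inside the GENCODE span of the gene. Whether the motifs bear on the sizes of the differences was not tested.

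H2-M3, which presents N-formylated peptides, measured 2.13, 2.69 and 2.65 FPKM in the controls and 5.81, 5.60 and 5.09 FPKM with Sema4D. The groups did not overlap. The log2 difference was 0.90 (SE 0.081, limma adjusted p = 3.64e-05), a fold of 2.21.

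Nlrc5 was scarcely detected in the controls and was near 1 FPKM with Sema4D. It measured 0.164, 0.153 and 0.0883 FPKM in the controls, at most 18.7 fragments, and 1.03, 1.06 and 0.779 FPKM with Sema4D, about 82.7 to 130.2 fragments. Every Sema4D library lay above every control, and the fold of the means was 7.08. In the fit with no filter the log2 difference was 0.78 (SE 0.066, limma adjusted p = 0.000157), beside 17.2% of 17461 genes called higher in that fit.

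By level, the controls ran in the order B2m, H2-D1, H2-K1, H2-Q4, H2-M3, H2-T23, H2-Q7, H2-T22, H2-Q6 and Nlrc5. Neighbours overlapped in the pairs H2-M3 and H2-T23, H2-Q7 and H2-T22, and H2-Q6 and Nlrc5. With Sema4D the order was B2m, H2-D1, H2-Q4, H2-K1, H2-M3, H2-T23, H2-T22, H2-Q7, Nlrc5 and H2-Q6. Here the overlapping pairs were H2-Q4 and H2-K1, and H2-T23 and H2-T22.

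The summed FPKM of the 8 heavy chain genes went from 84.3 ± 1.06 to 194 ± 4.81 (SD, n = 3), a fold of 2.30, against 1.88 for B2m. Per FPKM of B2m, the controls had 0.354, 0.356 and 0.360 FPKM of heavy chains, and the Sema4D libraries had 0.437, 0.437 and 0.435. The ratio was thus higher in all 3 Sema4D libraries, with a log2 difference of 0.29 (exact two-sided permutation p = 0.1, the smallest possible). A single scaling factor per library leaves this ratio as it is, and it was not computed after quantile normalization. B2m still exceeded the sum of these 8 heavy chain genes in every library, by 2.81 ± 0.0221 times in the controls and 2.29 ± 0.00655 times with Sema4D. With the other class I genes of chromosome 17 added, H2-L and H2-T10 among them, the sum went from 102 ± 1.88 to 240 ± 1.74 FPKM (SD, n = 3). The log2 ratio to B2m then differed by 0.32 (exact two-sided permutation p = 0.1, the smallest possible).

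The make-up of the heavy chain transcripts also differed between the groups. H2-K1 and H2-D1 together made up 83.4 ± 0.273% of summed heavy chain FPKM in the controls and 71.9 ± 0.636% with Sema4D, which fell by 11.5 percentage points (exact two-sided permutation p = 0.1, the smallest possible). H2-D1 alone went from 69.8% to 52.1%, although its own level rose. H2-Q4 went from 9.16 ± 0.387% to 20.0 ± 0.203%, and H2-K1 from 13.6% to 19.8%. H2-T22 went from 0.654% to 1.96%, H2-T23 from 2.93% to 1.99%, and H2-M3 was at 2.96% and 2.83%. With the H2-K1 to H2-D1 and H2-Q4 to H2-K1 ratios, 4 such relations were tested, and each had a Benjamini-Hochberg adjusted exact p of 0.1.

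**Figure D2:**
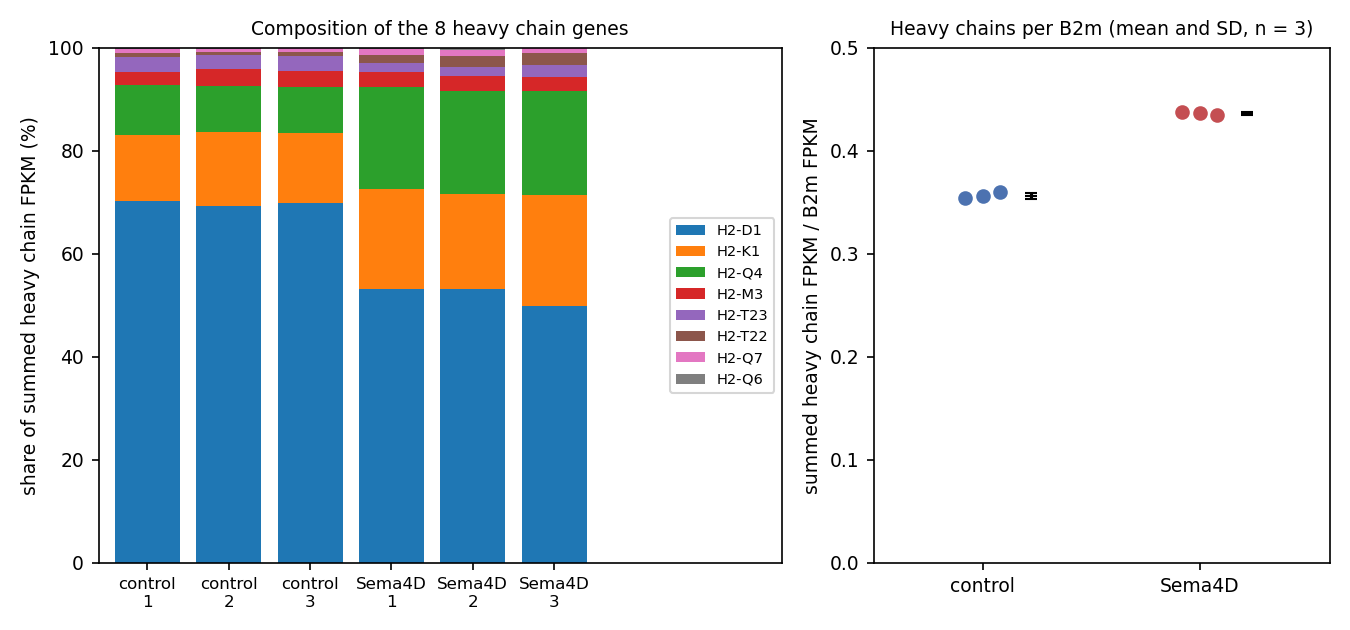
Left, the share of each heavy chain gene in the summed heavy chain FPKM of each library, in percent; right, summed heavy chain FPKM divided by B2m FPKM for each library, with mean and SD (n = 3) beside the points. The H2-D1 share is near 70% in the controls and near 52% with Sema4D, the H2-Q4 share is near 9% and 20%, and the ratio is 0.356 and 0.436.

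Many class I genes are near copies of one another, and fragments can be divided among them in different ways. In the GENCODE M21 transcripts, 53.5% of the 50-base stretches of H2-T22 also occur, on either strand, in another gene. Of all its stretches, 31.2% occur in H2-T10 and 26.55% in the antisense gene A930015D03Rik. The share found in any other gene was 36.4% for H2-Q4, 35.0% for H2-Q6 and 26.5% for H2-Q7. It was lower for H2-T23 (14.5%), H2-D1 (12.8%) and H2-K1 (9.63%). It was 0.576% for H2-M3 and 0.338% for Nlrc5. For 100-base stretches the shares were lower, at 31.5% for H2-T22, 14.1% for H2-Q4, 13.04% for H2-Q6, 12.0% for H2-Q7, 3.59% for H2-D1 and 0.957% for H2-K1, and the read length is not given in the sources used here. H2-Q8, H2-Q9, H2-L and H2-T9 were not found in GENCODE M21, so stretches shared with them are not counted. The values of H2-D1, H2-Q4, H2-Q6, H2-Q7 and H2-T22 are uncertain as those of single genes. H2-Q4 overlaps Gm11131 on the opposite strand, and H2-T22 and H2-T23 overlap A930015D03Rik, which was listed at no more than 1.14 FPKM. Nlrc5 overlaps 9330175E14Rik, listed at no more than 0.209 FPKM, and B2m overlaps Patl2, listed at 0. Whether counting used the strand is not given in the sources used here.

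Summed with their close copies, the genes kept their direction. H2-Q8 was listed at under 0.001 FPKM in the controls and at 0.000546, 0.00342 and 0.659 FPKM with Sema4D, so its one high library was the one in which H2-Q6 was nearly 0. H2-Q6 and H2-Q8 together went from 0.164 ± 0.0769 to 0.671 ± 0.0991 FPKM (SD, n = 3), and the log2 difference of the sum was 0.52 (limma adjusted p = 0.00105 with no filter). H2-Q9 was listed at 0 in the controls and at 0.219, 0.336 and 5.1e-05 FPKM with Sema4D, and H2-Q7 and H2-Q9 together went from 0.595 ± 0.0852 to 2.36 ± 0.487 FPKM. H2-T22, H2-T10 and H2-T9 together went from 6.23 ± 0.481 to 27.6 ± 1.51 FPKM, a fold of 4.42. In Sema4D replicate 3, H2-D1 was the lowest of the 3 and H2-L the highest, at 19.5 FPKM. The 2 genes together went from 68.1 ± 1.999 to 114 ± 1.349 FPKM, a fold of 1.68 and a log2 difference of 0.74. These sums were chosen after the values were seen.

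**Figure D3:**
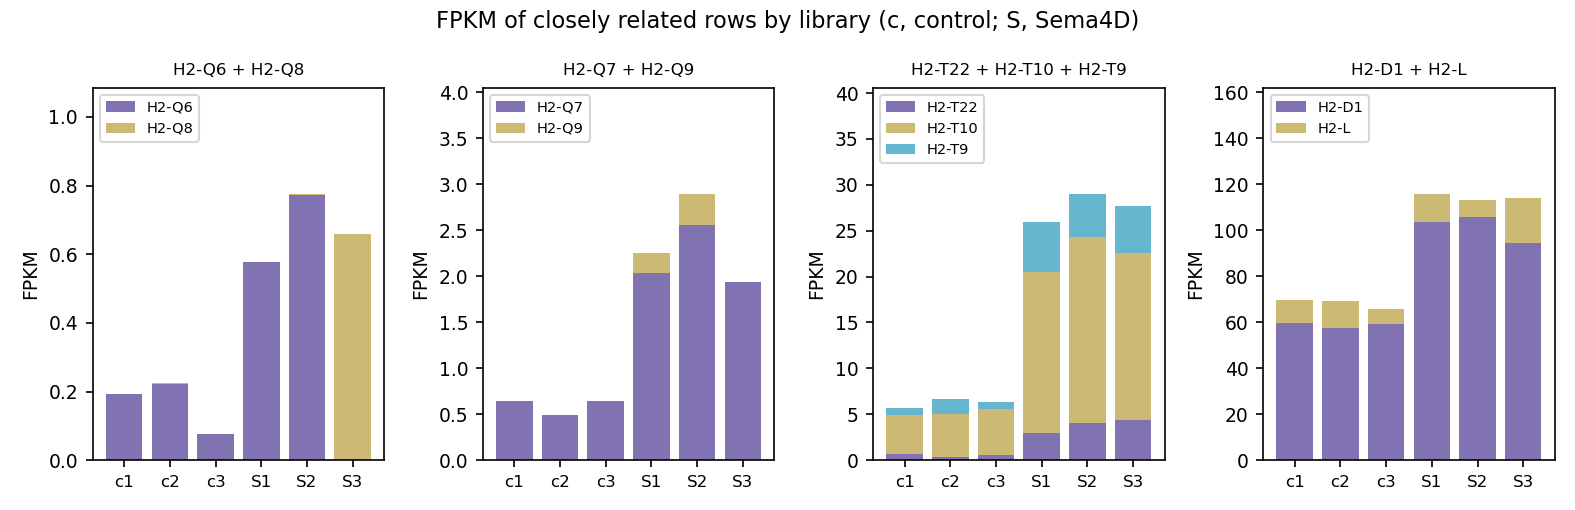
FPKM of closely related class I genes in each library (c, control; S, Sema4D), stacked, in 4 panels with their own axes. The sums are higher in every Sema4D library than in every control in all 4 panels, while the division between H2-Q6 and H2-Q8 and between H2-D1 and H2-L varies among the Sema4D libraries.

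Of 37 other class I and class I-like genes, 31 were in the table, 9 were tested and 9 were listed at 0 in every library. With Sema4D 4 of the 9 tested were higher and 1 was lower (limma), beside 24.5% and 22.2% of all tested genes. The median log2 difference of the 9 was 0.39. H2-T10 had 4.27, 4.61 and 5.03 FPKM in the controls and 17.5, 20.2 and 18.1 FPKM with Sema4D, a log2 difference of 1.80. H2-T9 rose by 1.62 and H2-Q2 by 1.31 on the log2 scale. Procr, the class I-like endothelial protein C receptor, rose by 0.85. Fcgrt, the heavy chain of the neonatal Fc receptor, which also pairs with beta-2-microglobulin, fell by 0.18 (limma adjusted p = 0.00555). Mr1, which presents vitamin B metabolites, had a log2 difference of -0.03 (limma adjusted p = 0.703). Cd1d1, which presents lipids, had -0.19 (limma adjusted p = 0.349).

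Of 13 peptide supply and loading genes, all tested, 11 were higher and 0 were lower (limma), beside 24.5% and 22.2% of all tested genes, with a median log2 difference of 1.15. The largest difference, 3.18, was that of Psmb8, which passed the filter only through its levels with Sema4D (control mean 0.706 FPKM). Tapbp, encoding the loading chaperone tapasin, measured 38.0, 40.6 and 41.3 FPKM in the controls and 190, 180 and 179 FPKM with Sema4D, a log2 difference of 2.16. The immunoproteasome subunit Psmb10 rose by 1.84, the trimming peptidase Erap1 by 1.45 and the proteasome activator subunit Psme1 by 1.04. The general chaperones Calr and Pdia3 had log2 differences of -0.01 and -0.03 (limma adjusted p = 0.746 and 0.498). After quantile normalization or scaling to equal summed FPKM, Calr and Pdia3 were the 2 genes of the list that fell, and 10 were higher.

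**Figure D4:**
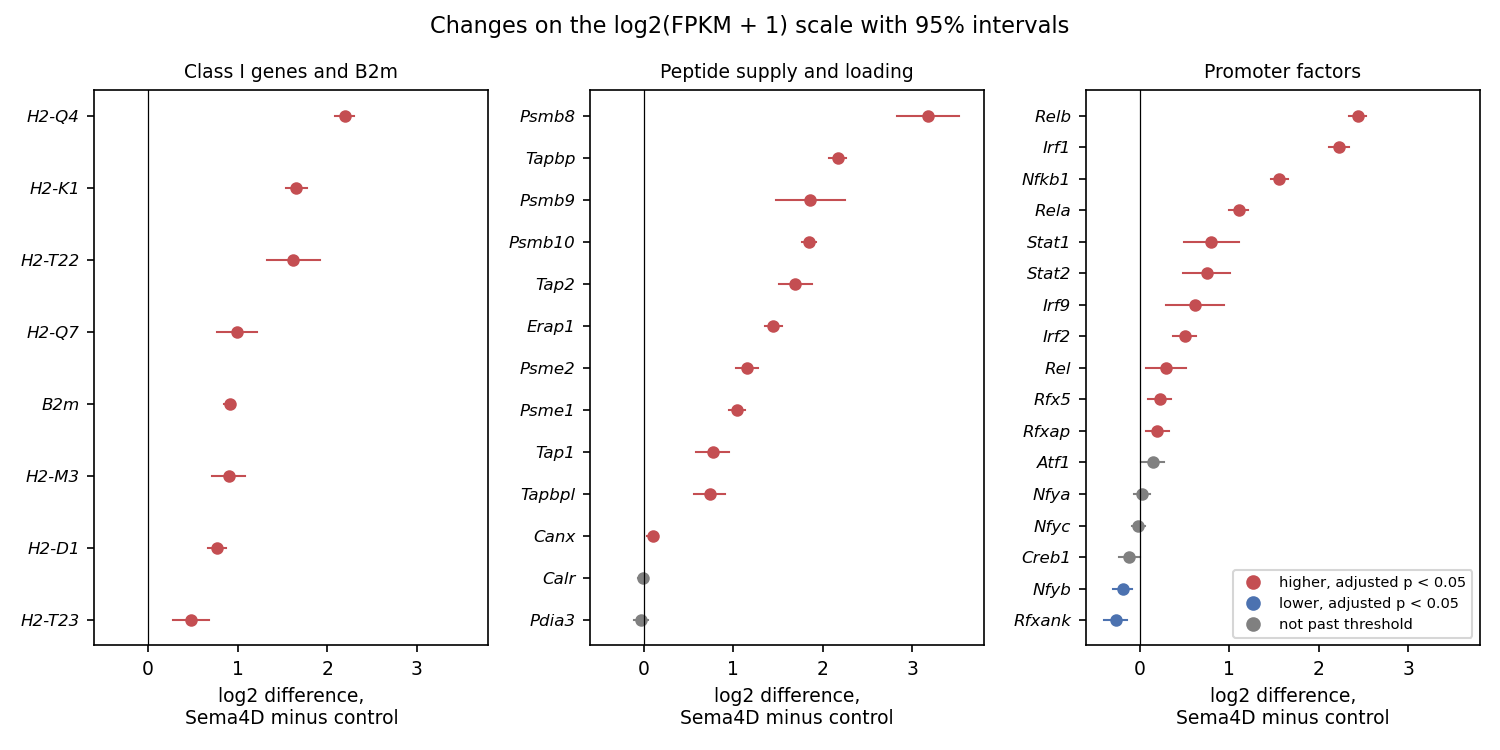
Log2 differences between Sema4D and control on the log2(FPKM + 1) scale, with 95% intervals, for the 8 tested class I genes, 13 peptide supply and loading genes and 17 promoter factor genes. All 8 class I genes lie above 0, from H2-T23 at 0.48 to H2-Q4 at 2.19, while Rfxank and Nfyb are the 2 promoter factors past the threshold below 0.

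Of 18 genes for factors of class I promoters, 17 were tested, 11 were higher and 2 were lower (limma), beside 24.5% and 22.2% of all tested genes, with a median log2 difference of 0.29. The genes of NF-kappaB subunits and of Irf1 led the list. Relb went from 6.41, 7.04 and 6.57 FPKM to 40.8, 39.7 and 41.0 FPKM, a log2 difference of 2.44. Irf1, an interferon regulatory factor, went from 7.42, 6.91 and 7.83 FPKM to 39.3, 37.2 and 38.0 FPKM, a log2 difference of 2.23. Nfkb1 rose by 1.56 and Rela by 1.11. The SXY-binding factors were divided. Of the RFX subunit genes, Rfx5 rose by 0.23 (limma adjusted p = 0.0110) and Rfxap by 0.20 (limma adjusted p = 0.0202), while Rfxank fell by 0.27 (limma adjusted p = 0.00548) and the NF-Y subunit Nfyb fell by 0.19 (limma adjusted p = 0.0101). Creb1 had a log2 difference of -0.11 (limma adjusted p = 0.0949) and Atf1 one of 0.15 (limma adjusted p = 0.0611). The other NF-Y subunit genes, Nfyc and Nfya, were at -0.01 and 0.03 (limma adjusted p = 0.773 and 0.548). Measured as mRNA, these levels say nothing of the amount or activity of the proteins.

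Class II genes, which present extracellular peptides in specialised cells, were mostly low. Of 11 in the table, 9 lay under the filter, 3 of them listed at 0 in every library. Of the 2 tested, 1 was higher (limma), beside 24.5% of all tested genes. Cd74, the class II invariant chain, had 0, 0.170 and 0.236 FPKM in the controls and 2.996, 3.06 and 3.19 FPKM with Sema4D, a log2 difference of 1.85 (limma adjusted p = 1.52e-06). It passed the filter only through its levels with Sema4D. H2-DMa had a log2 difference of -0.20 (limma adjusted p = 0.326). H2-Aa, a class II chain gene, was listed at 0 in every library, and Ciita, the class II counterpart of Nlrc5, stayed at or below 0.0447 FPKM.

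The list of interferons and their receptors held 16 genes. The 10 interferon genes in it were listed at 0 in every library, and of the 6 receptor genes 5 were tested and 5 were higher (limma), beside 24.5% of all tested genes. Ifngr2, a chain of the interferon-gamma receptor, rose by 1.37 on the log2 scale, from 16.99, 16.8 and 17.7 FPKM to 46.7, 45.0 and 45.7 FPKM. Il10rb, a chain that the interferon-lambda receptor shares with other receptors, rose by 1.12. Ifnlr1, its partner chain in that receptor, was the receptor gene not tested. It had a mean of 0.178 FPKM in the controls and 0.166 FPKM with Sema4D, and the groups overlapped. The type I receptor genes Ifnar2 and Ifnar1 rose by 0.92 and 0.67.

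Class I transcripts are abundant in leukocytes, so markers of other cells were set beside them. Of 15 macrophage and dendritic markers, 5 were tested, of which 0 were higher and 3 lower, beside 24.5% and 22.2% of all tested genes. The 3 lower ones were Lyz2, Tyrobp and Laptm5. The summed level of the 15 was 26.5 to 34.8 FPKM in the controls and 23.1 to 26.6 FPKM with Sema4D. Most of it was Lyz2, whose mean was 22.4 FPKM in the controls and 15.9 FPKM with Sema4D. Ptprc, which marks all leukocytes, stayed at or below 0.126 FPKM, and its groups overlapped. The macrophage marker Adgre1 had 0.268, 0.264 and 0.0784 FPKM in the controls and 0.750, 0.706 and 0.563 FPKM with Sema4D. Fcer1g, which encodes an Fc receptor signalling chain, had 0.166, 0 and 0.536 FPKM in the controls and 0.875, 0.938 and 1.63 FPKM with Sema4D. In both genes every Sema4D library lay above every control, but both lay under the filter and were not tested. Of 13 lymphocyte markers 10 were at 0 in every library, Cd3e among them, and the sum was at most 0.0534 FPKM in the controls and 0.107 to 0.318 FPKM with Sema4D. Of the 9 endothelial markers none was tested, and Pecam1 stayed at or below 0.148 FPKM. Of 10 tested synovial and tendon fibroblast markers 2 were higher and 6 lower, beside the same 24.5% and 22.2%. The 2 higher ones were Pdgfra, with a log2 difference of 0.86, and Cd34, with 0.52. The summed level of the fibroblast list was 8411 to 9005 FPKM in the controls and 7758 to 8103 FPKM with Sema4D. Most of that sum was Col1a1, Col1a2 and Col3a1. The part of such cells in the class I differences was not tested.

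The genes outside the lists whose levels ran most closely with the mean standardised level of the 8 tested class I genes, over the 6 libraries, were Pnrc1 (Pearson r = 0.99993), Pgk1 (0.9996), Serpine2 (0.9994), Dclk1 (0.99936) and Adrbk1 (0.99933). Such values mainly reflect the gap between the 2 groups, and 564 genes, or 4.90% of those outside the lists, had an r above 0.99. Pnrc1 measured 24.3, 23.6 and 24.9 FPKM in the controls and 65.3, 69.8 and 70.2 FPKM with Sema4D.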

How the data were processed

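The deposited values are FPKM per gene for 3 control and 3 Sema4D libraries. Per the submitters' processing notes, the tools included Cufflinks 2.2.1, TopHat2 2.0.13, SAMtools 0.1.19 and Bowtie2 2.2.3, with build mm10. The annotation, strand setting and read length are not given in the sources used here, and multi-copy class I genes depend on how those tools divided fragments. Columns were matched to samples by their names.

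The 11603 genes (of 24346) whose mean reached 1 FPKM were tested on log2(FPKM + 1) with limma 3.58.1 in R 4.3.3 (trend, Benjamini-Hochberg over all tested genes, adjusted p under 0.05, no replicate block). Differences on this scale understate the change of low genes. Genes under the filter were taken from a fit with no filter. Ratios and shares were compared with exact permutation tests. The fit was tested on simulated data with independent noise and far fewer changed genes than were called here. Such a simulation does not bear on whether the spread within a group is technical.

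The class I genes and all lists, motifs and rules were chosen with earlier results of these data known. From the lists, the 4 tested genes with the smallest adjusted p and those moving against most of their list are named. Further genes were chosen after their values were seen (H2-L, H2-Q8, H2-Q9, H2-Aa, Ciita, Rfx5, Rfxap, Atf1, Nfya, Fcer1g, Psmb8, Ifnlr1, Lyz2, Tyrobp, Laptm5, Pdgfra, Cd34, Col1a1, Col1a2, Col3a1).

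Sequencing depth was inferred from the spacing of the lowest values of 1681 genes with transcripts over 2000 bases. Of these values, 81.1% to 87.6% came within 0.15 of a whole fragment, too few to recover counts, so fragment numbers are approximate and use the longest transcript. Promoters came from RefSeq on GRCm38.p6 (mm10 is another name of GRCm38), and shared 50-base stretches from GENCODE M21. Alternatives were another pseudocount, filter, scaling, a replicate block and leaving out each library. For the ratio to B2m and the share, the other class I genes of chromosome 17 were also added.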

Additional observations from a re-analysis of the deposited data

How the results depend on the processing

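The 8 tested class I genes stayed higher and past the threshold (limma) in each of the alternatives in which they were tested. Their log2 differences ranged from 0.76 to 0.93 for B2m, 0.69 to 0.82 for H2-D1, 1.58 to 1.73 for H2-K1, 2.12 to 2.32 for H2-Q4, 0.38 to 0.61 for H2-T23 and 0.82 to 1.12 for H2-M3. Those of H2-T22 (1.497 to 2.59) and H2-Q7 (0.89 to 1.71), the genes that passed the filter only through Sema4D, moved most, to the upper value with a pseudocount of 0.1. With a minimum mean of 5 FPKM, 4 class I genes remained tested and higher, with a median of 1.28, and with a pseudocount of 0.1 the median was 1.41. H2-Q6 passed only without Sema4D replicate 3 or summed with H2-Q8. Of the other class I genes, 8 were higher with no filter and 2 with a mean of at least 5. Of the peptide supply genes, 2 were lower after quantile normalization and 2 after equal summed FPKM. Of the promoter factors, 11 higher and 2 lower in the main fit, 9 were higher and 1 was lower with a mean of at least 5. After quantile normalization or equal summed FPKM, 9 were higher and 3 lower. Leaving out single libraries gave 9 to 12 higher and 2 lower. Of the class II genes, 0 were higher with a mean of at least 5, and 1 was lower with no filter (H2-DMb2). The stricter filter tests fewer genes, and the cause of the other shifts was not tested.

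Without each library in turn, the median over the class I genes was 0.90 to 0.995, the log2 heavy chain to B2m ratio differed by 0.287 to 0.298, and the H2-K1 and H2-D1 share by -11.9 to -11.3 percentage points (exact p = 0.2, the smallest for 2 against 3). The labels do not say that a replicate number pairs libraries. Deviations of same-numbered libraries correlated at 0.14, -0.08 and -0.05. Control 1 correlated best with its own number, and control 2 and control 3 with another number. Correlations this weak cannot decide whether the numbers pair the libraries. With the number as a replicate block, 2638 genes were higher and 2356 lower, the class I count was 8, and 1 class II gene (H2-DMa) was lower. The paired exact p of the ratio and of the share was 0.25, the smallest possible. Depth limits H2-Q6 and Nlrc5, whose control levels rest on under 20 fragments.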
